A study of Mus musculus with 12 samples.

Results

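The genes described here code for splicing factors. They were taken by name: every symbol made of Srsf and a number (11 SR proteins), every symbol that starts with Hnrnp followed by letters or digits (20 heterogeneous nuclear ribonucleoproteins, hnRNPs), and 12 other regulators, namely U2af1, U2af2, Tra2a, Tra2b, Rbm4, Esrp1, Esrp2, Rbfox2, Mbnl1, Mbnl2, Ptbp1 and Ptbp2. This gave 43 of the 32285 annotated features, and all 43 passed the filter on low counts that left 17697 genes for testing.

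The data are single-cell RNA-seq profiles of fetal mouse gonads at E12, staged at 23 ± 3 tail somites, from 12 libraries: XX and XY gonads of wild-type (WT), -KTS KO and +KTS KO embryos, with 2 libraries of each sex and genotype. -KTS KO embryos are homozygous for a Wt1 allele that cannot make the -KTS form of the transcription factor WT1, and +KTS KO embryos, the Frasier model, are homozygous for an allele that cannot make the +KTS form. Both alleles are germline mutations and are therefore carried by every cell of the gonad, the germ and endothelial cells included. The mice had a mixed background, the gonads were separated from the mesonephros before dissociation, and some -KTS KO libraries pooled several embryos, so that a p-value measures the spread between libraries. UMIs, the molecule tags that count single transcripts, were summed per library over the gonadal somatic cells and are given as CPM, counts scaled to the size of the library, after TMM normalization. Levels of Wt1 and of marker lists, and levels by cell class or cluster, are CPM before TMM scaling. Where the values of all libraries are listed, those of a genotype come in the order XX replicate 1, XX replicate 2, XY replicate 1, XY replicate 2.

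Splicing removes introns from the primary transcript. SR proteins bind mainly exonic enhancers and help the spliceosome to define an exon, many hnRNPs bind silencers and act against them, and U2AF, the dimer of U2af1 and U2af2, reads the end of the intron. Tissue-restricted regulators such as the PTBP, RBFOX, MBNL and ESRP families are known for setting neuronal, muscle or epithelial splicing programs. The forms of WT1 are themselves splice products: they arise from neighbouring donor sites at the end of exon 9, and the +KTS form carries a lysine, threonine and serine between its last zinc fingers. The -KTS form is known as a DNA-binding transcription factor, while the +KTS form binds DNA less well, sits in nuclear speckles and has been linked to splicing through U2AF and RBM4. The question was whether loss of the splicing-linked +KTS form shifted the splicing factor transcripts beyond the loss of -KTS. The paper reports that -KTS transcripts were more abundant in +KTS KO gonads than in controls, with similar total WT1 protein in XY gonads. Loss of +KTS and gain of -KTS therefore cannot be told apart in the +KTS KO libraries.

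The site that separates the knockouts is shown first. In the reference transcripts of GENCODE M21 (build GRCm38), 5 Wt1 transcripts have the longer and 2 the shorter end of the exon that starts at chr2:105169926 on the plus strand. The 9 bases at chr2:105170010-105170018 are in capitals, and the sequence is given from 21 bases before the junction to 21 bases of the next exon.
Wt1 +KTS: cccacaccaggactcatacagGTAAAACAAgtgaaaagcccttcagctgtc
Wt1 -KTS: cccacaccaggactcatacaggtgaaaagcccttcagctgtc
The counted tags come from the 3' end of transcripts, so they cannot tell these forms apart, and the level of Wt1 checks no label. Wt1 ranged from 158 to 309 CPM, before TMM scaling, over the libraries.

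After filtering, 77000 cells were kept and 66096 of them, in 26 of 37 clusters, were gonadal somatic, with 4091 to 7699 cells and 57391083 to 97856578 UMIs per library. XY +KTS KO replicate 1 stood apart: 24.7% of its somatic cells had under 5000 UMIs and the immediate early and heat shock list took 0.619% of its UMIs, against at most 0.436% elsewhere. In XX -KTS KO replicate 2, 22.0% of somatic cells had under 5000 UMIs. The XY WT libraries had the highest share of cell cycle transcripts (0.857% and 0.989%, against 0.628 to 0.716% in the others), and the summed mesonephric marker list was 22.9 to 33.0 CPM in -KTS KO, 12.2 to 18.1 in WT and 9.52 to 10.7 in +KTS KO, with 86.3% of its UMIs from Epcam. Mitochondrial transcripts took 1.88 to 2.46% of the somatic UMIs in -KTS KO, 2.86 to 3.30% in WT and 2.38 to 3.41% in +KTS KO, so that -KTS KO and WT did not overlap. The part of these differences in the results was not tested, except where a value without the libraries or cells concerned is given. The paper reports that the Sertoli and pre-granulosa clusters of the controls were missing in -KTS KO gonads. In +KTS KO gonads of both sexes it found pre-granulosa clusters distinct from those of XX controls. The somatic sums of the genotypes thus come from different mixtures of cell types. In such sums, fewer cells of a type and less RNA per cell cannot be told apart.

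Between the knockouts, over both sexes, few splicing factor genes moved and those that did went both ways. In edgeR's quasi-likelihood fit, with p-values adjusted by Benjamini-Hochberg over the whole table, 7 of 43 (16.3%) passed an FDR of 0.05, against 32.5% of all genes tested. Esrp2, Srsf12 and Hnrnpul1 were higher in +KTS KO than in -KTS KO, and Ptbp2, Rbfox2, Hnrnph2 and Srsf2 were lower. That is 3 higher and 4 lower, where 16.9% of all genes were higher and 15.6% lower. Among genes with a mean of at least 20 CPM, 5 of 40 splicing factor genes (12.5%) passed, against 24.5%. The share of these genes that changed was thus below the background on either basis. Without the libraries rich in cells of low UMI count, XX -KTS KO replicate 2 and XY +KTS KO replicate 1, 5 passed, against 26% of all genes. In somatic cells below the median share of cell cycle transcripts 14 of 43 passed, against 36.9% of all genes. The members' share was thus closer to the background in these cells than in all somatic cells. The 14 were the 7 and Hnrnpa1, Hnrnpa3, Hnrnpdl, Mbnl1, Ptbp1, Srsf3 and Srsf7. The 43 genes had a median log2 fold change of -0.06, against -0.003 for all genes, and 27 of 43 lay below 0. At 20 CPM or more the median was -0.063, against -0.016 for all such genes, with 26 of 40 and 2987 of 5682 below 0. The median size of the change, taken without its sign, was 0.14 on the log2 scale, against 0.32 for all genes, and 0.125 against 0.18 at 20 CPM or more.

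**Figure D1:**
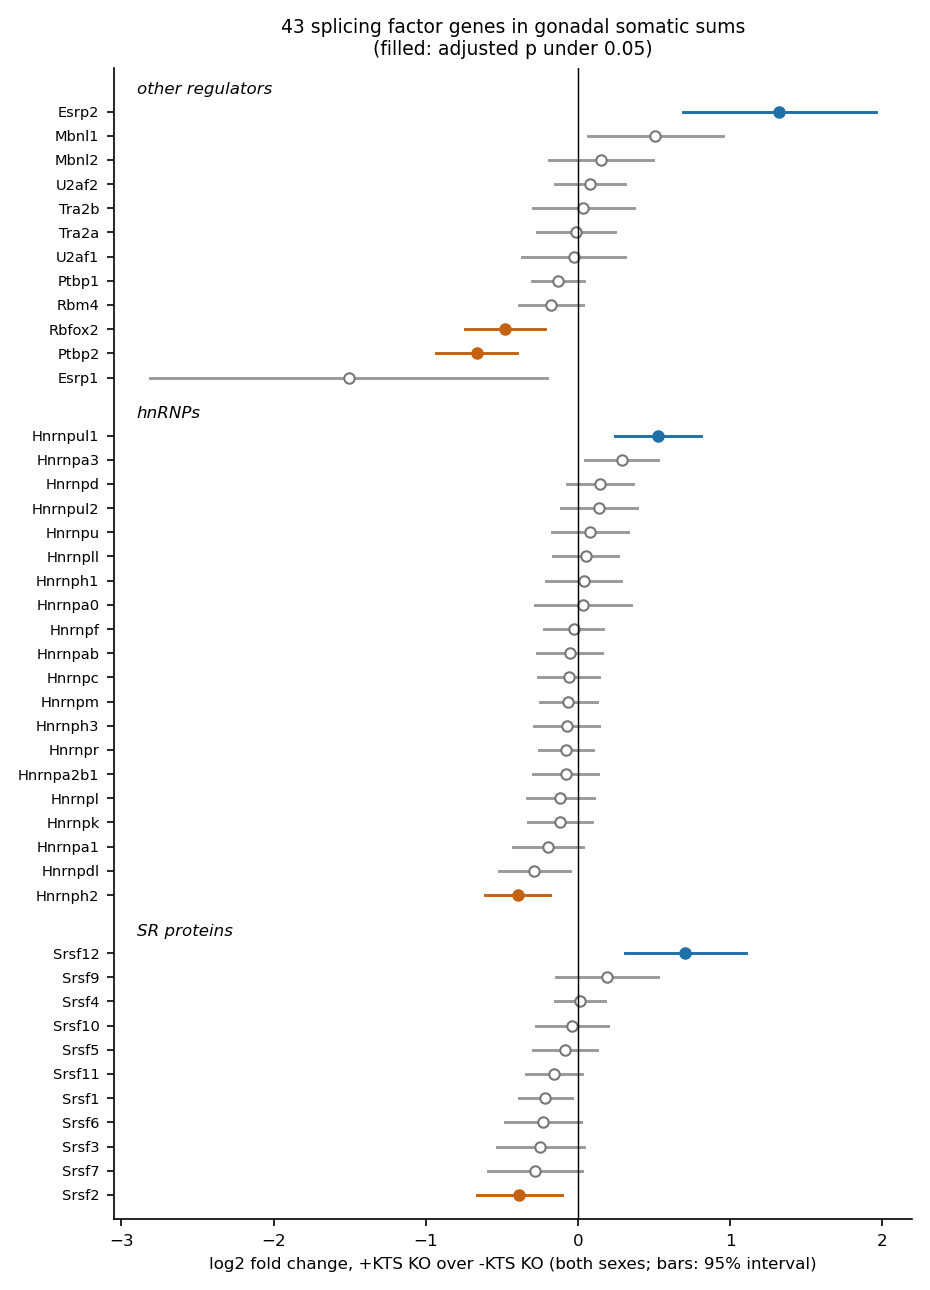
Log2 fold change of each of the 43 splicing factor genes between +KTS KO and -KTS KO, both sexes (x axis, bars are 95% intervals), by family; filled points passed an adjusted p of 0.05. The points of 3 genes are filled to the right of 0 and those of 4 to the left, and of the open points those of Esrp1 and Mbnl1 lie farthest from 0.

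Of the 36 genes that did not pass, 29 had a 95% interval that lay wholly between -0.5 and 0.5 on the log2 scale, and 35 one between -1 and 1. Narrow intervals were common among all genes of that level. At 20 CPM or more, 29 of 35 uncalled members and 3180 of 4290 uncalled genes had one between -0.5 and 0.5. Srsf1, Hnrnpdl, Hnrnpa3, Esrp1 and Mbnl1 had the adjusted p-values nearest to the threshold, between 0.061 and 0.078. A p-value that misses the threshold does not show equal levels, and the intervals give the changes that these libraries allow. As a count of separation, the 4 +KTS KO libraries and the 4 -KTS KO libraries did not overlap for 13 of 43 genes (4 above, 9 below), while 35% of all genes were so separated.

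Of the 11 SR proteins 2 passed (18.2%, against 32.5% of all genes), with a median log2 fold change of -0.16. Srsf2 (chr11:116849901-116853094, minus strand, overlapped by Mettl23 and Mfsd11 on the other strand) codes for SC35, a defining component of nuclear speckles. Srsf2 was at 210, 290, 324 and 343 CPM in WT, 225, 300, 315 and 319 in -KTS KO, and 213, 224, 218 and 227 in +KTS KO. The +KTS KO libraries were alike and low, but the lower of the XX -KTS KO libraries lay among them. The log2 fold change was -0.39 ± 0.13 (SE, adjusted p = 0.039). This call depended on single libraries: it was lost when any of 9 of the 12 was left out (all but the XX WT libraries and XX -KTS KO replicate 1), with adjusted p-values up to 0.16. Without both XX -KTS KO replicate 2 and XY +KTS KO replicate 1 the log2 fold change was -0.25 (adjusted p = 0.23).

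Srsf12 (chr4:33208991-33233340, plus strand) codes for a divergent SR protein and was scarce in these cells. The WT libraries held 3.95, 4.10, 2.36 and 2.62 CPM, those of -KTS KO 2.18, 2.96, 1.98 and 1.96, and those of +KTS KO 3.82, 3.10, 4.75 and 3.05. All +KTS KO libraries lay above all -KTS KO libraries, and the XX WT libraries lay within the +KTS KO range. The difference between the knockouts was 0.71 ± 0.18 on the log2 scale (adjusted p = 0.012), and without XX -KTS KO replicate 1 it was 0.54 (adjusted p = 0.067).

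The remaining 9 SR genes did not pass and ranged from -0.28 (Srsf7) to 0.19 (Srsf9). Srsf1, the founding member of the family and a proto-oncogene, was the closest to the threshold. Srsf1 was at 91.5, 104, 95.4 and 95.2 CPM in WT, 114, 117, 112 and 113 in -KTS KO, and 93.3, 102, 99.9 and 97.1 in +KTS KO. Each -KTS KO library was above each of the others, within a narrow range, and the log2 fold change between the knockouts was -0.21 (95% interval -0.39 to -0.04, adjusted p = 0.061). Srsf3 and Srsf7, which also act in mRNA export, had log2 fold changes of -0.25 and -0.28, and their libraries did not overlap between the knockouts.

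Of the 20 hnRNPs 2 passed (10.0%, against 32.5% of all genes), and the median log2 fold change of the 20 was -0.06. Hnrnpul1 (chr7:25721165-25754757, minus strand) codes for an hnRNP U-like protein with roles in RNA processing and the DNA damage response. Hnrnpul1 was at 49.1, 59.7, 49.4 and 62.1 CPM in WT, 53.7, 54.9, 40.5 and 52.5 in -KTS KO, and 77.9, 66.2, 78.9 and 66.6 in +KTS KO. Every +KTS KO library was above every other library. The log2 fold change over -KTS KO was 0.53 ± 0.13 (adjusted p = 0.0095). Without both XX -KTS KO replicate 2 and XY +KTS KO replicate 1 the call was lost (adjusted p = 0.065), though not without either alone.

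Hnrnph2 (chrX:134601179-134607060, plus strand) is the X-linked member of the hnRNP H and F family, which binds G-rich tracts. The WT libraries held 34.7, 39.2, 38.3 and 39.3 CPM, those of -KTS KO 45.2, 46.3, 47.0 and 54.0, and those of +KTS KO 33.4, 36.3, 42.2 and 34.3. The -KTS KO libraries were the highest 4 of the 12. Between the knockouts the log2 fold change was -0.40 ± 0.10 (adjusted p = 0.0098), and it was much the same in XX (-0.39) and XY (-0.40). The call held when each library was left out in turn.

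The other 18 hnRNPs did not pass and ranged from -0.29 (Hnrnpdl) to 0.29 (Hnrnpa3). Hnrnpa1 and Hnrnpa2b1, proteins that package nascent transcripts and often oppose SR proteins, were at -0.20 and -0.08. In the cells below the median share of cell cycle transcripts Hnrnpa1, Hnrnpa3 and Hnrnpdl passed. Of these 18, 16 had an interval between -0.5 and 0.5, as had 3180 of the 4290 uncalled genes at 20 CPM or more.

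Of the 12 other regulators 3 passed, against 32.5% of all genes, so the share of this family was also below the background. Ptbp2 (chr3:119718742-119784466, minus strand, overlapped by Gm43300 and Gm42664 on the same strand), the neuronal polypyrimidine tract binding protein, a repressor of exons used in mature neurons, gave the smallest adjusted p-value of all 43 genes. Ptbp2 was at 35.2, 38.1, 40.8 and 44.1 CPM in WT, 48.5, 65.2, 54.7 and 70.1 in -KTS KO, and 37.4, 40.5, 38.6 and 33.6 in +KTS KO. Each -KTS KO library was above each WT and each +KTS KO library. On the log2 scale the change was -0.67 ± 0.12 (adjusted p = 0.0020), and it stayed between -0.77 and -0.55 with any 1 library left out, past the threshold each time. Its paralogue Ptbp1, which represses neuronal exons in non-neuronal cells, had a log2 fold change of -0.13 and did not pass.

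Rbfox2 (chr15:77078990-77307004, minus strand, overlapped by 4833412C15Rik, Gm49411 and Gm24056 on the same strand) codes for a regulator that reads the UGCAUG element beside alternative exons in mesenchymal, muscle and neural cells. The WT libraries held 39.2, 48.2, 46.1 and 51.3 CPM, those of -KTS KO 75.7, 67.7, 67.5 and 73.6, and those of +KTS KO 44.6, 60.0, 52.8 and 46.8. Again the -KTS KO libraries were the highest 4, with no overlap. Its log2 fold change was -0.48 ± 0.12 (adjusted p = 0.011), and the call held with each library left out in turn. With all kept cells the call was lost (adjusted p = 0.080).

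Esrp2 (chr8:106130319-106136974, minus strand, overlapped by Nfatc3 on the other strand), an epithelial splicing regulator, was near the limit of detection in the somatic sums. Esrp2 was at 1.55, 1.26, 0.882 and 1.44 CPM in WT, 0.723, 0.635, 0.328 and 0.561 in -KTS KO, and 1.55, 0.972, 1.88 and 1.15 in +KTS KO. The -KTS KO libraries were the lowest 4. The log2 fold change of 1.32 ± 0.28 (adjusted p = 0.0053) was the largest rise among the 43 genes. Its paralogue Esrp1 was rarer still, with 218 UMIs over all somatic sums. It stood at 0.547 CPM in XX -KTS KO replicate 2 and at 0.10 to 0.13 in the other -KTS KO libraries, and did not pass over both sexes (adjusted p = 0.076).

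U2af2 and Rbm4, the factors through which the +KTS form has been linked to splicing, were not called. U2af2 was at 73.6, 86.5, 80.9 and 84.7 CPM in WT, 89.1, 90.1, 70.1 and 92.6 in -KTS KO, and 89.2, 94.6, 85.6 and 91.8 in +KTS KO. These ranges overlapped, and the log2 fold change between the knockouts was 0.08, with a 95% interval from -0.15 to 0.31. For Rbm4, a regulator of alternative exons and of translation, the values were 50.01, 45.0, 50.9 and 43.6 CPM in WT, 49.99, 46.9, 58.0 and 49.8 in -KTS KO and 46.2, 48.5, 40.4 and 45.6 in +KTS KO. They overlapped as well, and the log2 fold change was -0.18 (95% interval -0.39 to 0.03). U2af1, the partner of U2af2, was at -0.03, and the SR-like enhancers Tra2a and Tra2b at -0.01 and 0.04. The muscleblind genes Mbnl1 and Mbnl2, which favour adult splice forms, were at 0.51 and 0.15, and neither passed. Of the 43 genes 11 share their strand with an overlapping annotated gene, Rbm4, Ptbp2 and Rbfox2 among them, so some of their tags may be assigned uncertainly.

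**Figure D2:**
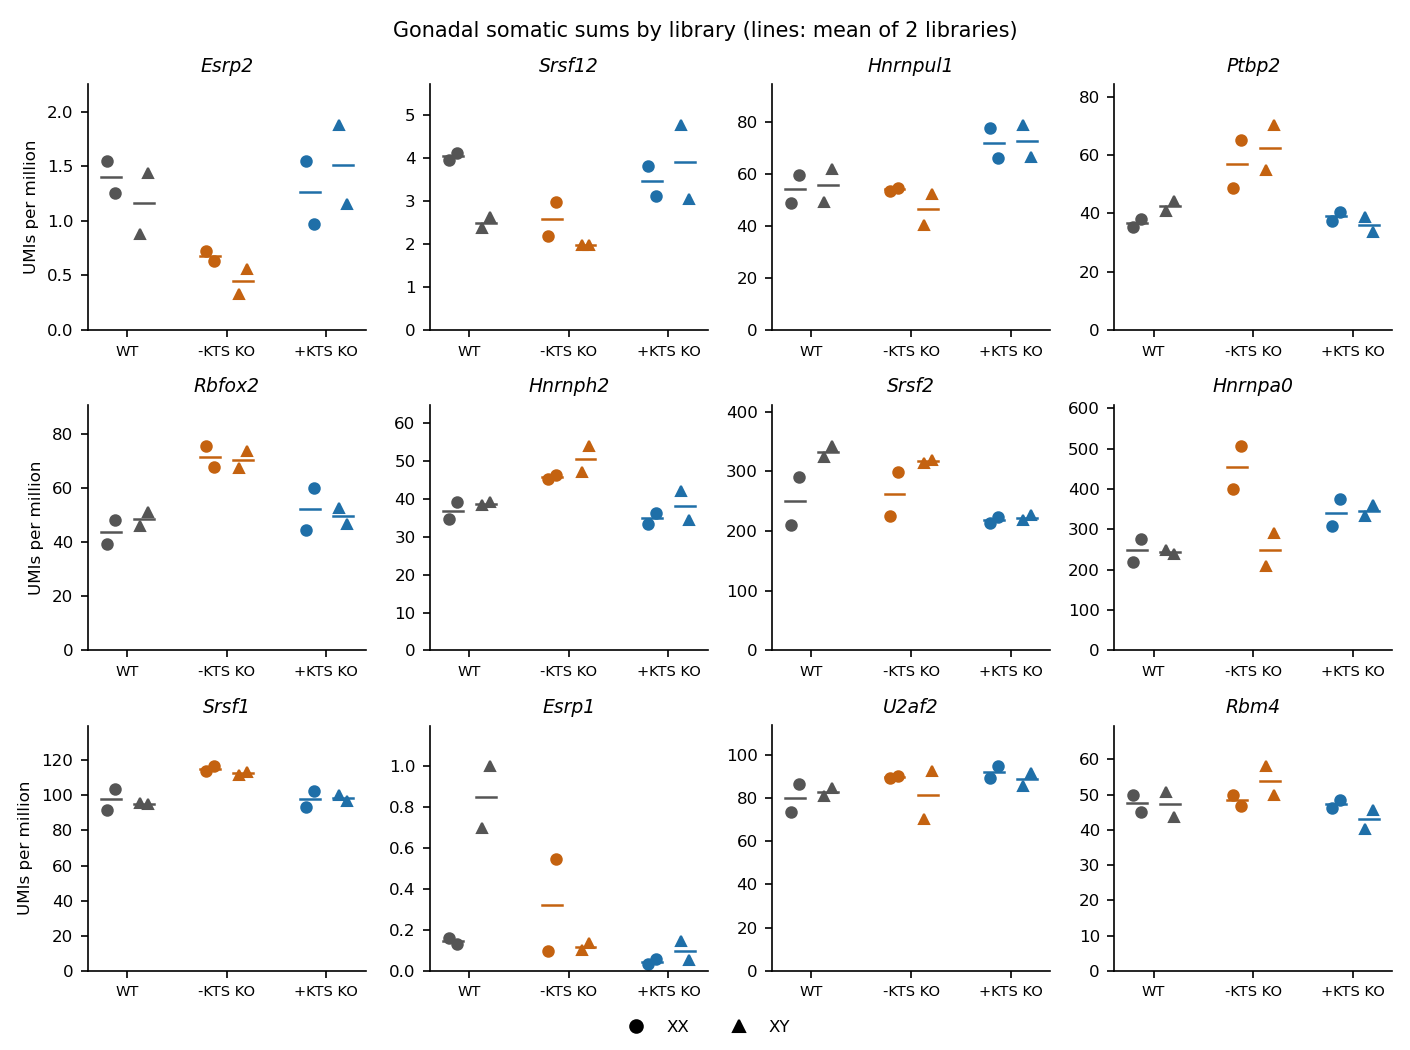
CPM of 12 splicing factor genes in the gonadal somatic sums, 1 point per library (circles XX, triangles XY), with lines at the mean of 2 libraries; y axes start at 0 and differ between panels. For Ptbp2, Rbfox2, Hnrnph2 and Srsf1 all 4 -KTS KO points lie above all others, and for Hnrnpul1 all 4 +KTS KO points do.

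Each knockout was then set against WT. These comparisons share the 4 WT libraries, so their values are given side by side and not correlated. In -KTS KO 6 of 43 genes passed (14.0%), against 31.3% of all genes (14.9% higher and 16.4% lower): Ptbp2 (log2 fold change 0.59, adjusted p = 0.0047), Rbfox2 (0.62, adjusted p = 0.0033), Hnrnph2 (0.34, adjusted p = 0.021), Hnrnpa0 and Srsf1 (0.24, adjusted p = 0.042) were higher than in WT and Esrp2 (-1.21, adjusted p = 0.010) lower. In +KTS KO 2 of 43 passed (4.65%), against 12.6% of all genes (6.43% higher and 6.16% lower): Hnrnpa0 was higher and Esrp1 lower. Esrp1 was at 0.162, 0.131, 0.694 and 0.997 CPM in WT, 0.098, 0.547, 0.10 and 0.134 in -KTS KO, and 0.032, 0.059, 0.146 and 0.052 in +KTS KO, the last from 3 to 12 UMIs per library. The XY WT libraries were the highest, and XY +KTS KO replicate 1 lay between the XX WT libraries. The change of Esrp1 in +KTS KO against WT was -2.38 ± 0.57 on the log2 scale (SE, adjusted p = 0.024). The members' share was again below the background in each comparison. The same 6 genes passed in -KTS KO with a limit of 5% mitochondrial UMIs per cell. In somatic cells below the median share of cell cycle transcripts the log2 fold changes of -KTS KO over WT were larger for Ptbp2 (1.04), Hnrnph2 (0.74) and Srsf1 (0.37). With all kept cells that of Srsf1 was 0.15 (adjusted p = 0.24), and that of Esrp1 in +KTS KO was -1.25 (adjusted p = 0.044). All kept cells include the germ cells, which held 9419 UMIs of Esrp1, against 218 in the somatic sums. For Esrp1 this setting therefore mainly measures germ cells. The median log2 fold change of the 43 genes was 0.02 in -KTS KO and -0.02 in +KTS KO, against 0.005 and 0.008 for all genes. Without XX WT replicate 1, XY WT replicate 1 or XY -KTS KO replicate 2, the 6 calls of -KTS KO came down to 3 (Ptbp2, Rbfox2 and Esrp2), and the call of Hnrnph2 was also lost without either XX -KTS KO library. That of Srsf1 was lost without any 1 of 10 libraries. The call of Esrp1 in +KTS KO was lost without any 1 of 6, namely XX WT replicate 1 or 2, XY WT replicate 2, either XX +KTS KO library or XY +KTS KO replicate 2. It was also lost in the cells below the median share of cell cycle transcripts (adjusted p = 0.054), where Hnrnpa3 and Hnrnpul1 passed.

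Of the 7 genes that separated the knockouts, Ptbp2, Rbfox2, Hnrnph2 and Esrp2 thus differed from WT in -KTS KO. In +KTS KO their log2 fold changes over WT were -0.07, 0.15, -0.05 and 0.12, none of which passed. In somatic cells below the median share of cell cycle transcripts those of Ptbp2, Hnrnph2 and Esrp2 changed sign (0.20, 0.23 and -0.22), again not called. Hnrnpul1 (0.40, adjusted p = 0.069) and Srsf2 (-0.39, adjusted p = 0.071) had their larger difference from WT in +KTS KO, just short of the threshold, and log2 fold changes of -0.13 and -0.002 in -KTS KO. With DESeq2 both passed in +KTS KO against WT (adjusted p = 0.037 for Hnrnpul1 and 0.016 for Srsf2), and with no count filter Hnrnpul1 did (adjusted p = 0.043). Srsf12 was between, at -0.49 (adjusted p = 0.061) in -KTS KO and 0.21 in +KTS KO. Of the 41 genes that did not pass in +KTS KO against WT, 33 had an interval within -0.5 and 0.5. At 20 CPM or more it was 33 of 39 uncalled members and 3615 of 5113 uncalled genes.

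**Figure D3:**
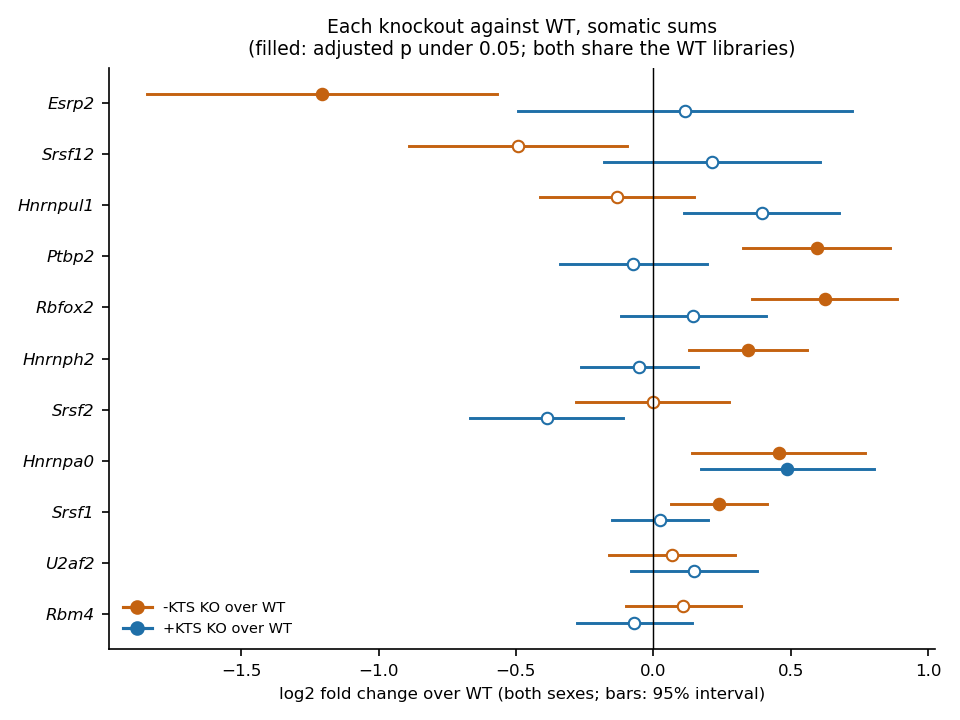
Log2 fold change over WT, both sexes, of 11 splicing factor genes in -KTS KO (orange) and +KTS KO (blue), with 95% intervals; filled points passed an adjusted p of 0.05. Ptbp2, Rbfox2, Hnrnph2, Srsf1 and Esrp2 are filled for -KTS KO and open for +KTS KO, and Hnrnpa0 is filled for both.

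Hnrnpa0, an hnRNP A/B protein that binds AU-rich messages, passed in both knockouts over WT. The WT libraries held 220, 276, 249 and 238 CPM, those of -KTS KO 401, 507, 208 and 292, and those of +KTS KO 307, 376, 333 and 360. The excess was largest in XX -KTS KO, and the XY -KTS KO libraries spanned the WT range. The log2 fold change over WT was 0.46 in -KTS KO (adjusted p = 0.033) and 0.49 in +KTS KO (adjusted p = 0.0495). The call in +KTS KO was lost without any 1 of 10 of the 12 libraries (all but those of XY -KTS KO), and the call in -KTS KO without XX WT replicate 1, XY WT replicate 1 or 2, XY -KTS KO replicate 2 or XX -KTS KO replicate 2.

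Within 1 sex, with 2 libraries against 2, fewer genes passed between the knockouts. In XX it was 1 of 43 (2.33%), against 18.8% of all genes, and in XY 4 of 43 (9.30%), against 21.9%. The XX call was Esrp1, at a log2 fold change of -2.75 (adjusted p = 0.045) that rested on the 31 UMIs of XX -KTS KO replicate 2 and was lost without it (-1.09, adjusted p = 0.48), as without any 1 of 8 other libraries or with all kept cells (-1.47, adjusted p = 0.082). The XY calls were Ptbp2 (-0.79, adjusted p = 0.0091), Esrp2 (1.76, adjusted p = 0.013), Srsf12 (0.98, adjusted p = 0.021) and Hnrnpul1 (0.65, adjusted p = 0.029), and in XX these were -0.55, 0.89, 0.43 and 0.41. Without XY +KTS KO replicate 1 or XY -KTS KO replicate 1, Esrp2, Srsf12 (0.65 and 0.99) and Hnrnpul1 no longer passed in XY, and without XY -KTS KO replicate 2 Ptbp2 and Srsf12 did not.

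The difference between the sexes was tested itself, as the change in XY minus the change in XX. By edgeR 0 of 43 genes passed, as did 0% of all genes tested, and with DESeq2 it was 0 of 43 and 12 of all genes. At an unadjusted p under 0.05 there was 1 of 43 and 774 of all genes. That gene was Hnrnpa0, at -0.41 in XX and 0.47 in XY, a difference of 0.88 (adjusted p = 0.86). In WT, XY against XX, 1 of 43 passed, against 13.3% of all genes: Esrp1, at 0.16 and 0.13 CPM in XX and 0.69 and 1.00 in XY (log2 fold change 2.52, adjusted p = 0.043), a call lost without any 1 of 8 of the 12 libraries and with all kept cells (0.31, adjusted p = 0.79). The setting of all kept cells includes the germ cells, where most UMIs of Esrp1 lay. In XY against XX WT the 43 genes had a median of 0.11, against -0.02 for all genes, and 33 of them lay above 0. At 20 CPM or more the median was 0.12, against 0.05 for all such genes, with 32 of 40 and 3270 of 5682 above 0. The SR proteins had a median of 0.24, in the comparison in which the cell cycle list was also higher in XY WT.

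The somatic changes were next looked for in other cells of the same libraries, which carry the same alleles. Between the knockouts 0 of 43 genes passed in germ cells by edgeR (1 at an unadjusted p under 0.05), where 0.248% of all genes did, and 0 of 40 in endothelial cells (4 at an unadjusted p under 0.05), where 4.19% did. These sums are smaller, and the share of all genes that passed was small as well. For -KTS KO against WT 0 of 43 passed in germ cells (4 at an unadjusted p under 0.05), where 0.0218% of all genes did, and 2 of 40 in endothelial cells, where 8.9% did. These were Hnrnpa1 (log2 fold change -0.50, adjusted p = 0.016) and Hnrnpr (-0.42, adjusted p = 0.043), which were lower in -KTS KO there and at 0.15 and 0.09, not called, in somatic cells. For Ptbp2 the log2 fold change of -KTS KO over WT was 0.59 (95% interval 0.33 to 0.86) in somatic cells, -0.04 (-0.45 to 0.38) in germ cells and -0.52 (-0.95 to -0.08, adjusted p = 0.14) in endothelial cells. For Rbfox2 it was 0.62 (0.36 to 0.89), -0.06 (-0.34 to 0.21) and -0.10 (-0.38 to 0.18). The intervals of the somatic cells and of the endothelial cells did not overlap for either gene. The difference between cell classes was not tested itself. For Hnrnpul1 the change between the knockouts was 0.53 in somatic, 0.27 in germ and 0.61 (adjusted p = 0.092) in endothelial cells.

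**Figure D4:**
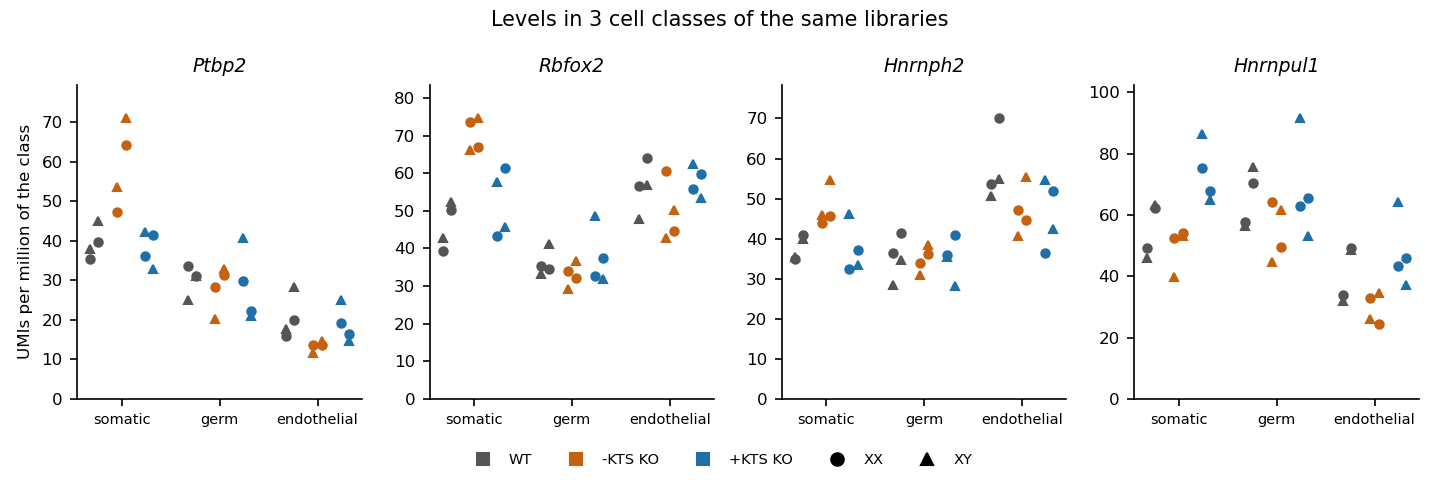
CPM within the cell class, before TMM scaling, for Ptbp2, Rbfox2, Hnrnph2 and Hnrnpul1 in somatic, germ and endothelial cells, 1 point per library (color for genotype, circles XX, triangles XY). The -KTS KO points of Ptbp2 and Rbfox2 lie above the others in somatic cells and not in germ or endothelial cells.

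The epithelial regulators differed in where they were found. Esrp1 was at 39.9 CPM in germ cells (30.9 to 49.1 over the libraries), against 0.232 in the pooled somatic sum. Esrp2 was at 1.10 CPM in the somatic sum and 0.729 in germ cells, and 1 UMI was counted in endothelial cells. The mesonephric duct class held 68 UMIs of Esrp1 and 8 of Esrp2, but its 72 cells, 71 of them from XY +KTS KO replicate 2 and 1 from XX +KTS KO replicate 2, give no level for the class across libraries. In the somatic sums the germ marker list was at 68.4 CPM in XX -KTS KO replicate 2, the -KTS KO library with the most Esrp1, and at 13.5 to 14.7 in the other -KTS KO libraries. It was at 47.3 to 92.4 CPM in WT, highest in XY WT replicate 2 as Esrp1 was, and at 38.1 to 66.5 in +KTS KO, where Esrp1 was low. XY WT replicate 1 had the lowest germ list of WT, at 47.3 CPM, with Esrp1 at 0.694. The XX WT libraries had 58.8 and 50.9 CPM, with Esrp1 at 0.162 and 0.131. The part of germ transcripts in the values of Esrp1 was not tested.

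Within the somatic cells, levels also varied between clusters. There were 18 somatic clusters with at least 100 cells and at least 80% of them from 1 genotype, 6 of WT, 5 of -KTS KO and 7 of +KTS KO, with 49972 cells. Ptbp2 ranged from 18.1 to 57.3 CPM over the WT clusters (median 35.0), from 42.7 to 69.6 over those of -KTS KO (median 56.2) and from 25.1 to 56.0 over those of +KTS KO (median 41.5). Hnrnpul1 was at 46.6 to 75.8, 44.9 to 63.9 and 57.8 to 93.6, with medians of 55.5, 49.5 and 73.7. For Rbfox2 the ranges were 30.5 to 54.0, 43.3 to 104 and 35.0 to 84.2, with medians of 43.1, 66.9 and 40.35. Hnrnph2 had 20.8 to 51.5, 35.5 to 62.9 and 25.1 to 56.05 (medians 27.1, 50.6 and 39.2). For Srsf1 it was 63.15 to 127, 71.1 to 144 and 72.8 to 121 (medians 87.9, 127 and 110). The ranges of the genotypes overlapped for each gene. For Ptbp2, Rbfox2, Hnrnph2 and Srsf1 the highest WT cluster lay within the -KTS KO range. Between the knockouts the medians differed in the direction of the sums. For Ptbp2 and Hnrnph2 the median of +KTS KO lay above that of WT and the sum did not, and for Rbfox2 the reverse held. Whether like cells changed was not tested. Clusters share libraries and are not replicates, so these values are a description.

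The -KTS form binds DNA, and the promoters of genes that were lower in +KTS KO than in -KTS KO are shown as examples. A match was sought to GTGGGNG (on the other strand CNCCCAC), the core of WT1 and EGR sites, from 250 bases before to 50 after the start (RefSeq, GRCm38.p6). Matches are in capitals, and Rbfox2 had no entry.
Ptbp2, chr3:119783339-119783638, minus strand: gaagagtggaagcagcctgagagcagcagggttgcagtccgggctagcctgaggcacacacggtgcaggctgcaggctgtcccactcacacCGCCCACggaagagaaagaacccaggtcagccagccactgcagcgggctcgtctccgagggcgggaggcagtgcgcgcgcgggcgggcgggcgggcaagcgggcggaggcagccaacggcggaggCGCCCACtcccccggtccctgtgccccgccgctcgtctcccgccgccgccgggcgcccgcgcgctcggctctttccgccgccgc
Hnrnph2, chrX:134600929-134601228, plus strand: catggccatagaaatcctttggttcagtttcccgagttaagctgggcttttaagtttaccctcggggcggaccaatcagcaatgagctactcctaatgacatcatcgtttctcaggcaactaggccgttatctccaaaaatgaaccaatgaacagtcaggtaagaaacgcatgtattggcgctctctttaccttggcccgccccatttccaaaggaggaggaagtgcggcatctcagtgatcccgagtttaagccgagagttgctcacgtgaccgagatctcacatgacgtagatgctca
Srsf2, chr11:116853045-116853344, minus strand: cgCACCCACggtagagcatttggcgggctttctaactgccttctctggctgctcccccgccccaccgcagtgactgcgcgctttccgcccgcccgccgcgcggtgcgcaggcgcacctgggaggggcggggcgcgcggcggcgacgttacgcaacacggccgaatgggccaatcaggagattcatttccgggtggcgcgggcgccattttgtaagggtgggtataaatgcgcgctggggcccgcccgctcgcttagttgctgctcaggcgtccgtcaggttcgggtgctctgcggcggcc
Ptbp2 held 2 matches, Srsf2 1 and Hnrnph2 0. Of the genes higher in +KTS KO than in -KTS KO, not shown, Srsf12 and Hnrnpul1 held 0 and Esrp2 had no entry. Srsf1 held 0 and Hnrnpa0 1. Entries existed for 37 of the 43 genes, with 52 windows, and 24 windows (46.2%) held a match, against 31.6% of all 32851 windows. The longer GCGTGGGNG (CNCCCACGC) was in 2 of 52 windows (3.85%) and in 1.90% of all. These are matches of letters in windows rich in G and C (74.7% for Ptbp2), not binding sites.

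Other genes of the splicing machinery were taken from lists of complexes and of further RNA-binding regulators. Between the knockouts 12 of 111 passed (10.8%, against the 32.5% of all genes), 9 of them lower in +KTS KO. Of the 16 U1 and U2 snRNP proteins and the 8 Sm proteins, which build the spliceosome's core particles, 0 passed by edgeR or DESeq2 (1 and 0 at an unadjusted p under 0.05). In the U4/U6.U5 tri-snRNP and Prp19 complex 1 of 19 passed (Prpf31, log2 fold change -0.48), among speckle proteins 1 of 10 (Pnn, -0.37) and among SR protein kinases 1 of 7 (Srpk3, below 0.3 CPM in every library). For the exon junction complex it was 0 of 5 by both tools (1 at an unadjusted p under 0.05), and for the m6A writer complex built on WTAP, named for its association with WT1, 0 of 7 by both tools (0 at an unadjusted p under 0.05).

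In the list of 39 other RNA-binding regulators 9 passed (23.1%, against the 32.5% of all genes). Lower in +KTS KO were Celf2 (log2 fold change -1.39), Celf4 (-1.34), both CELF proteins of neurons and muscle, Khdrbs2 (-1.27), a neuronal STAR protein, and Raly, Taf15 and Rbmx. Khdrbs3 (1.19), Qk (0.65), the STAR protein quaking, and Nova2 (1.42, below 0.8 CPM in every library) were higher. Khdrbs2 was at 0.83 to 1.27 CPM in WT, 2.98 to 5.52 in -KTS KO and 1.33 to 2.23 in +KTS KO, with no overlap between the genotypes. Celf4 was at 5.64 to 8.94, 13.1 to 19.2 and 5.20 to 7.49, so that the -KTS KO libraries stood apart from both others. Khdrbs3 was at 33.0 to 49.7, 30.3 to 39.1 and 56.7 to 93.1, with +KTS KO apart. Marker lists of other cell types also differed between the knockouts in these sums. The neural or Schwann list was at 6.87 to 9.76 CPM in -KTS KO, 2.81 to 4.67 in +KTS KO and 5.11 to 18.9 in WT, and its markers Sox10 and Foxd3 were at 0 in at least 1 library. The perivascular list was at 31.8 to 50.8, 18.8 to 25.8 and 16.7 to 39.9 CPM, with 2 of 7 markers apart and Higd1b at 0 throughout. Their part in the changes of Celf2, Celf4 and Khdrbs2, and of Ptbp2 and Rbfox2 above, was not tested. Against WT 14 of 111 passed in -KTS KO (12.6%, background 31.3%), led by Srrm4 (2.07), which activates neural microexons, and Khdrbs2 (1.99). In +KTS KO it was 6 of 111 (5.41%, background 12.6%), led by Srrm4 (1.66) as well. Srrm4 was scarce, at 0.19 to 0.52 CPM in WT, 1.13 to 1.66 in -KTS KO and 0.80 to 1.42 in +KTS KO.

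**Figure D5:**
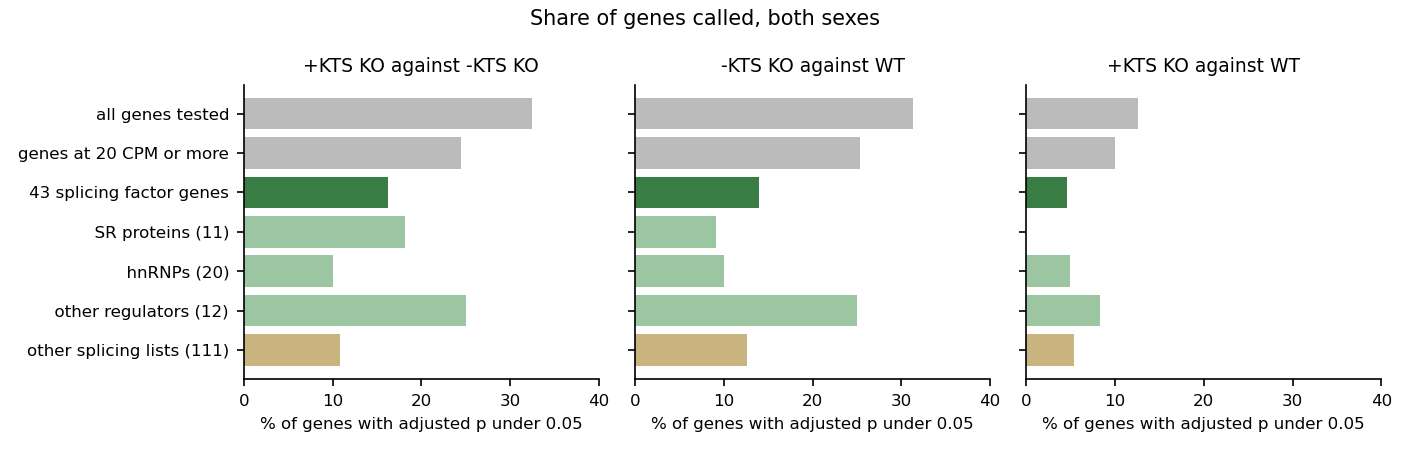
Share of genes with an adjusted p under 0.05 (bars, percent) in each comparison over both sexes, for all genes, genes at 20 CPM or more, the 43 splicing factor genes, their families and the 111 genes of the other splicing lists. The bar of the 43 genes is at 16.3, 14.0 and 4.65%, below the 32.5, 31.3 and 12.6% of all genes.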

How the data were processed

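Single-cell 3' libraries of 12 fetal mouse gonad samples (10x Genomics) were deposited as UMI counts. The authors aligned reads and counted UMIs per gene and cell with Cell Ranger 6.0 (mm10). Barcodes needed 1000 or more genes and no more than 10% mitochondrial UMIs, the highest-scoring doublets were removed (scanpy 1.11.5), and cells were clustered (Seurat 5.3.0, sctransform 0.4.2, 3000 variable genes, 50 components, resolution 0.8). Clusters were classed by marker lists, and a threshold that set aside 150 cells without such markers was chosen after the clusters were seen. Counts of gonadal somatic cells were summed per library and fitted with edgeR 4.0.16 (quasi-likelihood test, TMM, filterByExpr, all 12 libraries in 6 groups, Benjamini-Hochberg, FDR 0.05). Intervals are 95% t intervals. The edgeR fit was tested on simulated data. The members and gene lists were chosen with earlier results of these data known. Values per library are given for members called between the knockouts, for members called against WT, and for U2af2 and Rbm4. Alternatives were DESeq2 1.42.0, RLE scaling, no count filter, a replicate block, other cell choices and each library left out. Same-numbered libraries did not pair (15 correlations of deviations from -0.211 to 0.166, 4 above 0.1). Libraries shared 2 to 31 cell barcodes per pair.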

Additional observations from a re-analysis of the deposited data

How the results depend on the processing

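Between the knockouts over both sexes, 7 splicing factor genes were called, and 11 with DESeq2, 4 with all kept cells (Rbfox2, Srsf12 and Srsf2 lost), 14 with low cycle cells only, 8 with no count filter and 6 to 8 with 1 library left out. The number of all genes called ran from 4459 to 6499. In XX the count of 1 became 2 with RLE scaling, low cycle cells, doublets kept or a limit of 5% mitochondrial UMIs, 3 with DESeq2, 0 with all kept cells, with cells of at least 5000 UMIs or without both libraries rich in cells of low UMI count, and 0 to 3 with 1 library left out. In XY the count of 4 became 7 with DESeq2, 2 with all kept cells, 9 with low cycle cells, 1 without both those libraries, and 1 to 7 with 1 left out. For -KTS KO against WT the count of 6 became 9 with DESeq2 (Hnrnpa2b1, Hnrnpf and Srsf12 gained), stayed at 6 with RLE scaling (Srsf12 in place of Srsf1), and became 3 with all kept cells, 10 with low cycle cells and 3 to 7 with 1 library left out. For +KTS KO against WT the count of 2 became 1 with RLE scaling, doublets kept, cells of at least 5000 UMIs or without both those libraries, 6 with DESeq2, and 0 to 2 with 1 left out. For XY against XX WT the count of 1 became 2 with DESeq2 or without both those libraries, 0 with all kept cells or doublets kept, and 0 to 2 with 1 left out. DESeq2 also called more of all genes than edgeR: 3838 against 3322 in XX and 4457 against 3868 in XY. It was 5997 against 5544 for -KTS KO over WT, 3123 against 2229 for +KTS KO over WT, and 3017 against 2353 for XY over XX WT. Members called were also 6 with RLE scaling and 5 with no count filter in XY. With no count filter they were 5 for -KTS KO against WT. For +KTS KO against WT they were 3 with no count filter and 3 with low cycle cells. For settings other than DESeq2 the counts of all genes in these comparisons are not given, so a change in the members' count cannot be set against the background. The alternatives of cells of at least 5000 UMIs and of leaving out both libraries were chosen after seeing the data. With low cycle cells the calls of Esrp1 in XX, in +KTS KO against WT and between the sexes in WT were lost, and Ptbp2 and Hnrnph2 passed in XX. The causes were not tested.

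A replicate block gave 7, 1, 5, 5, 2 and 0 calls in the comparisons of the knockouts (both sexes, XX, XY), of -KTS KO and of +KTS KO with WT, and of XY with XX WT. It lost Srsf1 in -KTS KO against WT, exchanged Esrp1 for Ptbp2 in XX, gained Srsf2 in XY and lost Esrp1 between the sexes in WT. The labels give no shared source for the numbers, which is why the fit without the block was kept.

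Of 924 repeats of the named genes' log2 fold changes, 782 kept direction and side of the threshold, 104 fell short of it, 15 newly passed and 23 changed sign, all 23 for values that were not called. With low cycle cells the value became -0.22 for Esrp2, 0.20 for Ptbp2 and 0.23 for Hnrnph2 in +KTS KO over WT, 0.28 for Srsf2 in -KTS KO over WT, and -0.037 for Hnrnpa0 between the knockouts. With all kept cells Srsf1 was at -0.019 in +KTS KO over WT. With 1 library, or both of low UMI count, left out, the values in +KTS KO over WT ran from -0.072 to 0.31 for Esrp2 (-0.068 without both), from -0.019 to 0.066 for Srsf1 and from -0.12 to 0.019 for Hnrnph2. In -KTS KO over WT they ran from -0.11 to 0.12 for Srsf2 and from -0.040 to 0.16 for U2af2, and between the knockouts from -0.080 to 0.17 for Hnrnpa0 and from -0.012 to 0.19 for U2af2. With 2 libraries per group, small changes of the scarce genes (Esrp1, Esrp2 and Srsf12) cannot be resolved.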
